A study of Mus musculus with 8 samples.

Results

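Histone genes were described in mononuclear cells from mouse blood, 77 protein-coding genes of the 56748 rows in the deposited count table. They were taken by name, as protein-coding rows starting with H1f, H2ac, H2bc, H3c, H4c, H2az, H2ax, H2aj, H3f3 or Macroh2a. Of these, 64 were counted as replicative (H1f1 to H1f6, H2ac, H2bc, H3c and H4c) and 13 as variant (H1f0, H1f7 to H1f10, H2az, H2ax, H2aj, H3f3 and Macroh2a). The cells came from male wild-type C57BL/6J mice, adults aged 8 weeks, kept on a basal diet and gavaged daily for 1 month. There were 5 libraries from mice given saline and 3 from mice given fucoidan, a sulphated polysaccharide of the brown seaweed Undaria pinnatifida, at 200 mg per kg per day. Blood was drawn by cardiac puncture and cells were separated on a density gradient. Each library is titled as a biological replicate, and the labels give all of them the same batch.

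Histones are the proteins around which DNA is wound. The core histones H2A, H2B, H3 and H4 form the nucleosome, and linker histone H1 binds where DNA enters and leaves it. Replicative histone genes lie in clusters, lack introns as a rule, and are switched on in S phase to package new DNA. Their messenger RNAs end in a conserved stem-loop instead of a poly(A) tail, and a minor part of them is polyadenylated, mostly in differentiated cells. Variant genes lie alone, make tailed RNA throughout the cell cycle, and supply histones that replace the replicative forms outside S phase. The libraries here were poly(A)-selected. Counts of replicative genes therefore come from tailed copies or from carry-over, and a change in the amount of RNA and a change in its tailing cannot be told apart.

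The stem-loop is shown because it marks most of the replicative class in sequence as well as by name. In GENCODE vM21 transcripts, read in the sense direction, the histone stem-loop consensus of 16 bases was found in 43 of the 64 replicative genes and 1 of the 13 variant genes, H2ax. Of all 21901 protein-coding genes in that set, 68 (0.31%) held it. The windows below run 5′ to 3′, with T for U, and the capitals mark the stem-loop. They come from the most abundant linker histone, from members of each core family that rose with fucoidan, from a member that did not, and from H2ax.
H1f2: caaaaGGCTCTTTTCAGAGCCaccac
H2ac6: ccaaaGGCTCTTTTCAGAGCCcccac
H2bc6: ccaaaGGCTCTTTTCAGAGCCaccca
H3c4: ccaaaGGCTCTTTTCAGAGCCacccc
H4c17: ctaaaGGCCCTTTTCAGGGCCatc
H4c9: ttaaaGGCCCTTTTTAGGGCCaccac
H2bc8: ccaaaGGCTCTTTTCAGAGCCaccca
H2ax: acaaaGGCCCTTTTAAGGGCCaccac
H2bc8, which was not called, and H2bc6, which rose, have the same 26 letters in this window. In the other 21 replicative genes the consensus was not in the transcript model used, which for H2bc15 is 381 bases long.

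Replicative histone genes were called higher after fucoidan in each of the families H1, H2A, H2B, H3 and H4, and no variant gene was called. In H1 this was 1 of 3 tested genes (H1f2), in H2A 2 of 3 and in H2B 4 of 9. In H3 it was 2 of 3 and in H4 5 of 7. Of the 64 replicative genes, 25 had enough counts to be tested, and 14 of these rose and 0 fell, by 2.32-fold (H1f2) to 5.88-fold (H2bc24). The reads of H2bc24 cannot be separated from those of H2bc23. The ratio of means of their sum was 3.13, and the highest fold change without H2bc24 was 3.97 (H3c11). That sum may still hold reads of other H2B genes, H2bc4, H2bc6 and H2bc15 among them. Of the 14 risers, 13 share stretches of 150 bases (the read length) with other genes, and H1f2 shares none. The shared part ran from 2.08% of the stretches (H4c9) to 99.8% (H2bc24), with 52.7% in H3c11, 34.9% in H2bc15 and 28.0% in H4c8. The 14 calls are therefore not fully separate measurements. Among all 14723 genes tested, 9.11% were called higher and 4.65% lower at an adjusted p under 0.05. Of the 13 variant genes 8 were tested and 0 were called by edgeR. With DESeq2 and with limma-voom the variant count was also 0. In the edgeR test 3 variant genes had an unadjusted p under 0.05, H3f3b, Macroh2a1 and H1f0, all with negative log2 fold changes. The median log2 fold change was 1.34 over the tested replicative genes, -0.10 over the tested variant genes and -0.04 over all genes tested. The 2 classes were not tested against each other. Fold changes are fucoidan over saline, from edgeR's quasi-likelihood test with Benjamini-Hochberg adjustment over all genes tested, and levels are CPM (counts scaled to library size) after TMM scaling. In these mixed cells, a different share of a cell type and a different amount of RNA per cell cannot be told apart.

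**Figure D1:**
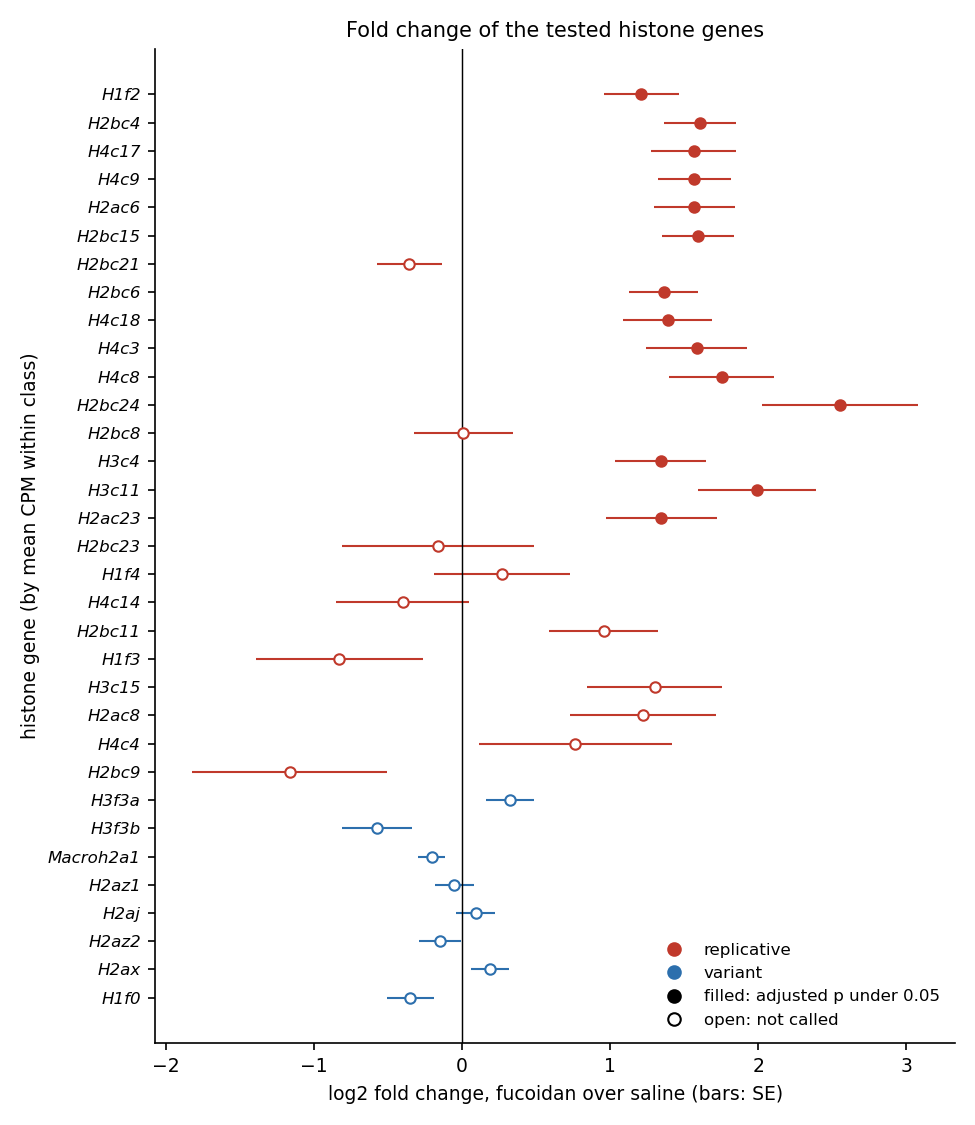
Log2 fold change (fucoidan over saline, x axis, bars are the SE) of the 33 tested histone genes, ordered on the y axis by mean CPM within each class. Filled points were called at an adjusted p under 0.05: 14 replicative genes sit between 1.21 and 2.55, and the 8 variant genes lie between -0.57 and 0.32.

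In each of the 14 risers at least 3 saline libraries alone reached the level of the filter on low counts. Another 2 replicative genes passed it only through their fucoidan libraries, H2ac8 and H3c15, and neither was called. Not tested were 39 replicative genes, of which 9 had 0 counts in all libraries and 30 had some. The highest mean among them was 0.402 CPM, and the lowest among the tested ones was 0.599 CPM. Also not tested were 5 variant genes, H1f7, H1f8, H1f9, H1f10 and Macroh2a2, of which 2 had 0 counts.

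Linker histone H1f2 was the most abundant replicative gene (ENSMUSG00000036181, GRCm39 chromosome 13, 23922791 to 23924350). It made up 53.5 to 62.9% of replicative CPM in saline libraries and 52.9 to 55.2% in fucoidan libraries. In saline replicates 1 to 5 it stood at 341, 206, 379, 313 and 240.0 CPM, and in fucoidan replicates 1 to 3 at 606, 442 and 1006 CPM. The groups did not overlap, and fucoidan replicate 3 was the highest of all libraries. The fold change was 2.32 (log2 1.21, SE 0.254, adjusted p = 0.0102). Without fucoidan replicate 3 it was log2 0.84 with an adjusted p of 0.0525, and with no filter on low counts the adjusted p was 0.0872. Its relatives H1f3 and H1f4 were about 1 CPM after saline, with log2 fold changes of -0.83 (SE 0.564) and 0.27 (SE 0.459), and neither was called.

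H2bc4 and H2ac6, which encode core histones H2B and H2A, are head-to-head neighbours with 250 bases between them on chromosome 13, and they rose together. H2bc4 (ENSMUSG00000018102, 23868182 to 23876891) stood at 81.6, 75.0, 121, 88.9 and 62.9 CPM in saline replicates 1 to 5 and at 227, 178 and 379 CPM in fucoidan replicates 1 to 3. Every fucoidan library was above every saline library (3.05-fold, log2 1.61, SE 0.242, adjusted p = 0.00396). H2ac6 (ENSMUSG00000069270, 23865450 to 23867931) averaged 17.2 ± 3.84 CPM after saline (SD, n = 5) and 51.3 ± 26.4 CPM after fucoidan (SD, n = 3). Its libraries were at 21.3, 18.2, 20.1, 14.4 and 12.2 CPM after saline and at 41.2, 31.5 and 81.3 CPM after fucoidan. Again the groups were apart and fucoidan replicate 3 was highest (2.97-fold, log2 1.57, SE 0.275, adjusted p = 0.00497). H2bc15 and H2bc24 rose beside head-to-head partners too low to test. These were H2ac15 (mean 0.0877 CPM, 295 bases away) and H2ac24 (mean 0.104 CPM, 235 bases away). In another pair neither gene was called. H2ac8 and H2bc8, 175 bases apart, had log2 fold changes of 1.22 (SE 0.492) and 0.01 (SE 0.332) without a call. In the pair 267 bases apart, H2ac23 was called and H2bc23 was not (log2 -0.16), but the reads of both are largely shared with copies, so whether H2bc23 rose is not known.

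Because H2ac6 and H2bc4 start from the same stretch of DNA, its sequence is printed here from the RefSeq promoter table (GRCm38.p6, chr13:23683910-23684209, minus strand, H2ac6 reading 5′ to 3′). Capitals mark the letters CCAAT, ATTTGCAT (the octamer of histone H2B promoters) and TATAAA on either strand, none of which overlap another.
H2ac6 promoter: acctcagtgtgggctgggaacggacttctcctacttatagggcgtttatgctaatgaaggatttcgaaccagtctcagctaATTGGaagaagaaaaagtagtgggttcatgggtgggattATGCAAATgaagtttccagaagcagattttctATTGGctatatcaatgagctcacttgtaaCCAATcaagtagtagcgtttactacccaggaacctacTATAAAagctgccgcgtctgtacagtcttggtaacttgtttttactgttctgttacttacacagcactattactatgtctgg
The window holds CCAAT once and its reverse complement at 2 places, the octamer once in reverse complement, and TATAAA once. RefSeq promoters were matched for 59 replicative genes, H2bc6 with 2 windows, and for 12 variant genes. H2bc4 had no entry of its own, so the risers gave 14 windows from 13 genes. CCAAT was in 52 of the 60 replicative windows (86.7%), in 8 of 12 variant windows (66.7%) and in 37.4% of all 32851 promoters. TATAAA was in 56.7% of replicative windows, in 1 of the variant windows, and in 13.6% of all promoters. The octamer was in 13 replicative windows, all of H2A or H2B genes, in 1 variant window, and in 1.74% of all promoters. The variant window with the octamer and with TATAAA was that of H3f3b. These letters did not separate risers from the rest: among windows of genes that rose, 71.4% held CCAAT and 50% TATAAA, and among those of tested replicative genes that were not called, 100% and 55.6%. The lower CCAAT share among risers goes with the H4 genes, of whose 5 risers 1 held it.

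Of 9 tested H2B genes 4 rose. H2bc15 (ENSMUSG00000095217, chromosome 13, 21938293 to 21938673) was at 7.92, 7.49, 10.3, 8.32 and 5.99 CPM after saline and at 20.5, 16.3 and 36.1 CPM after fucoidan. The groups were separate, at 3.02-fold (log2 1.59, SE 0.243, adjusted p = 0.00396). H2bc6 averaged 6.34 ± 1.82 CPM after saline (SD, n = 5) and 16.4 ± 4.45 CPM after fucoidan (SD, n = 3), a rise of 2.57-fold (adjusted p = 0.00481). Of its length 496 bases overlap H1f4 on the same strand. H2bc24 had the largest fold change of the tested members (log2 2.55, SE 0.527, adjusted p = 0.00937). It stood at 2, 25, 42, 20 and 42 counts in saline libraries and at 163, 131 and 45 counts in fucoidan libraries, so that fucoidan replicate 3 barely passed the highest saline library in counts. Its call ended with the replicate number as a block (adjusted p = 0.192) and with no filter on low counts (0.0863).

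The H2bc24 value cannot be kept apart from its copies. Of the stretches of 150 bases (the read length) in its longest protein-coding transcript, 99.8% also occur in transcripts of other genes, H2bc23 among them, and of those in H2bc23 100%. H2bc23 went another way: it had 84 counts in saline replicate 4, 12 to 36 in the other saline libraries and 17 to 21 in fucoidan libraries. Summed, H2bc23 and H2bc24 stood at 2.14 to 6.01 CPM after saline and at 7.15 to 12.7 CPM after fucoidan. The summed groups did not overlap, and the ratio of means was 3.13. Other H2B genes that rose, such as H2bc4 and H2bc15, also share stretches with this pair, so the sum may hold their reads. The sources used here do not state how reads were shared out between copies.

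H2bc21 on chromosome 3 (ENSMUSG00000068854, 96128435 to 96131054) shares no such stretch with another gene. It was the most abundant gene classed by name as replicative that was not called. Its transcript model of 2620 bases holds no stem-loop consensus and has a poly(A) signal in its last 50 bases. The model of H2bc24, which rose, has the same features. H2bc21 stood at 10.6, 7.32, 14.3, 13.5 and 12.4 CPM after saline and at 11.0, 7.86 and 8.25 CPM after fucoidan. The groups overlapped (log2 -0.36, SE 0.221, adjusted p = 0.329). H2bc8 was at 1.80 to 5.83 CPM after saline and 3.63 to 4.29 CPM after fucoidan, with equal means of 3.91. H2bc11 had a log2 fold change of 0.96 (SE 0.368, adjusted p = 0.115). The smallest of all tested members was that of H2bc9 (log2 -1.16, SE 0.660, adjusted p = 0.28), at 4 to 23 counts after saline and 3 to 5 after fucoidan.

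H4 genes, which all encode a core histone with no common variant, rose in 5 of 7 tested cases. H4c17 (ENSMUSG00000069306, chromosome 13, 21995916 to 21996317) stood at 18.5, 25.5, 40.1, 24.7 and 16.6 CPM after saline and at 55.6, 58.0 and 109 CPM after fucoidan. H4c9 (ENSMUSG00000060639, 22224806 to 22225532) stood at 18.7, 18.1, 26.6, 23.5 and 16.6 CPM, and at 54.3, 38.0 and 92.5 CPM. In both genes saline replicate 3 was the highest of its group and still below the lowest fucoidan library. Their fold changes were 2.96 (log2 1.56, SE 0.285, adjusted p = 0.00555) and 2.97 (log2 1.57, SE 0.246, adjusted p = 0.00396). With no filter on low counts H4c17 had an adjusted p of 0.0606. H4c3, H4c8 and H4c18 rose by log2 1.58, 1.75 and 1.39, of which H4c3 and H4c18 were not called without fucoidan replicate 3 (adjusted p = 0.0621 and 0.0656). H4c17 and H4c18 share 85.8% and 77.2% of their stretches of 150 bases with each other, and their sum was 29.4 ± 10.6 CPM after saline (SD, n = 5) and 85.8 ± 35.3 CPM after fucoidan (SD, n = 3). H4c4 and H4c14 were near 1 CPM or lower, with log2 fold changes of 0.76 (SE 0.651) and -0.40 (SE 0.448), and were not called.

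The remaining risers were 2 H3 genes and an H2A gene at low levels. H3c11 (ENSMUSG00000101972, chromosome 13, 21967130 to 21967540) was at 1.92, 1.01, 0.930, 1.10 and 0.735 CPM after saline and at 3.74, 2.52 and 7.59 CPM after fucoidan. The groups did not overlap (3.97-fold, log2 1.99, SE 0.398, adjusted p = 0.00814). H3c4 rose by log2 1.34 (SE 0.306, adjusted p = 0.0146), but was not called with the replicate block (0.0761) or without fucoidan replicate 3 (0.0939). H2ac23 rose by log2 1.35 (SE 0.376, adjusted p = 0.0363), with the highest adjusted p of the calls. The call was lost with the block (0.125), without saline replicate 4 or 5 (0.0879 and 0.0656) and without fucoidan replicate 1 or 3 (0.0695 and 0.212). Of the 150-base stretches of H2ac23 and H3c11, 91.5% and 52.7% also occur in other genes, so their values may include reads of copies. H3c15 and H2ac8 had log2 fold changes of 1.30 (SE 0.456, adjusted p = 0.0847) and 1.22 (SE 0.492, adjusted p = 0.13), with groups that did not overlap but no call. Both passed the filter on low counts only through their fucoidan libraries, which favours higher fucoidan values.

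By position, all 14 risers lie in the chromosome 13 cluster, where 22 of 54 replicative genes were tested. In the chromosome 3 cluster (96127181 to 96177448) 3 of 10 were tested, H2bc21, H4c14 and H3c15, and 0 were called. H3c15 was the one of these with an unadjusted p under 0.05, and DESeq2 and limma-voom called 0 of them too. By transcript form, in 6 of the risers the annotated transcript runs more than 100 bases past the stem-loop, up to 2010 bases in H2ac6, and their median log2 fold change was 1.47. In 4 it ends within 100 bases of the stem-loop (median 1.48), and in 4 the consensus was not in the model (median 1.80). Of the 39 replicative genes that were not tested, 6 run on for more than 100 bases and 18 end sooner, against 14 and 5 of the 25 tested.

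**Figure D2:**
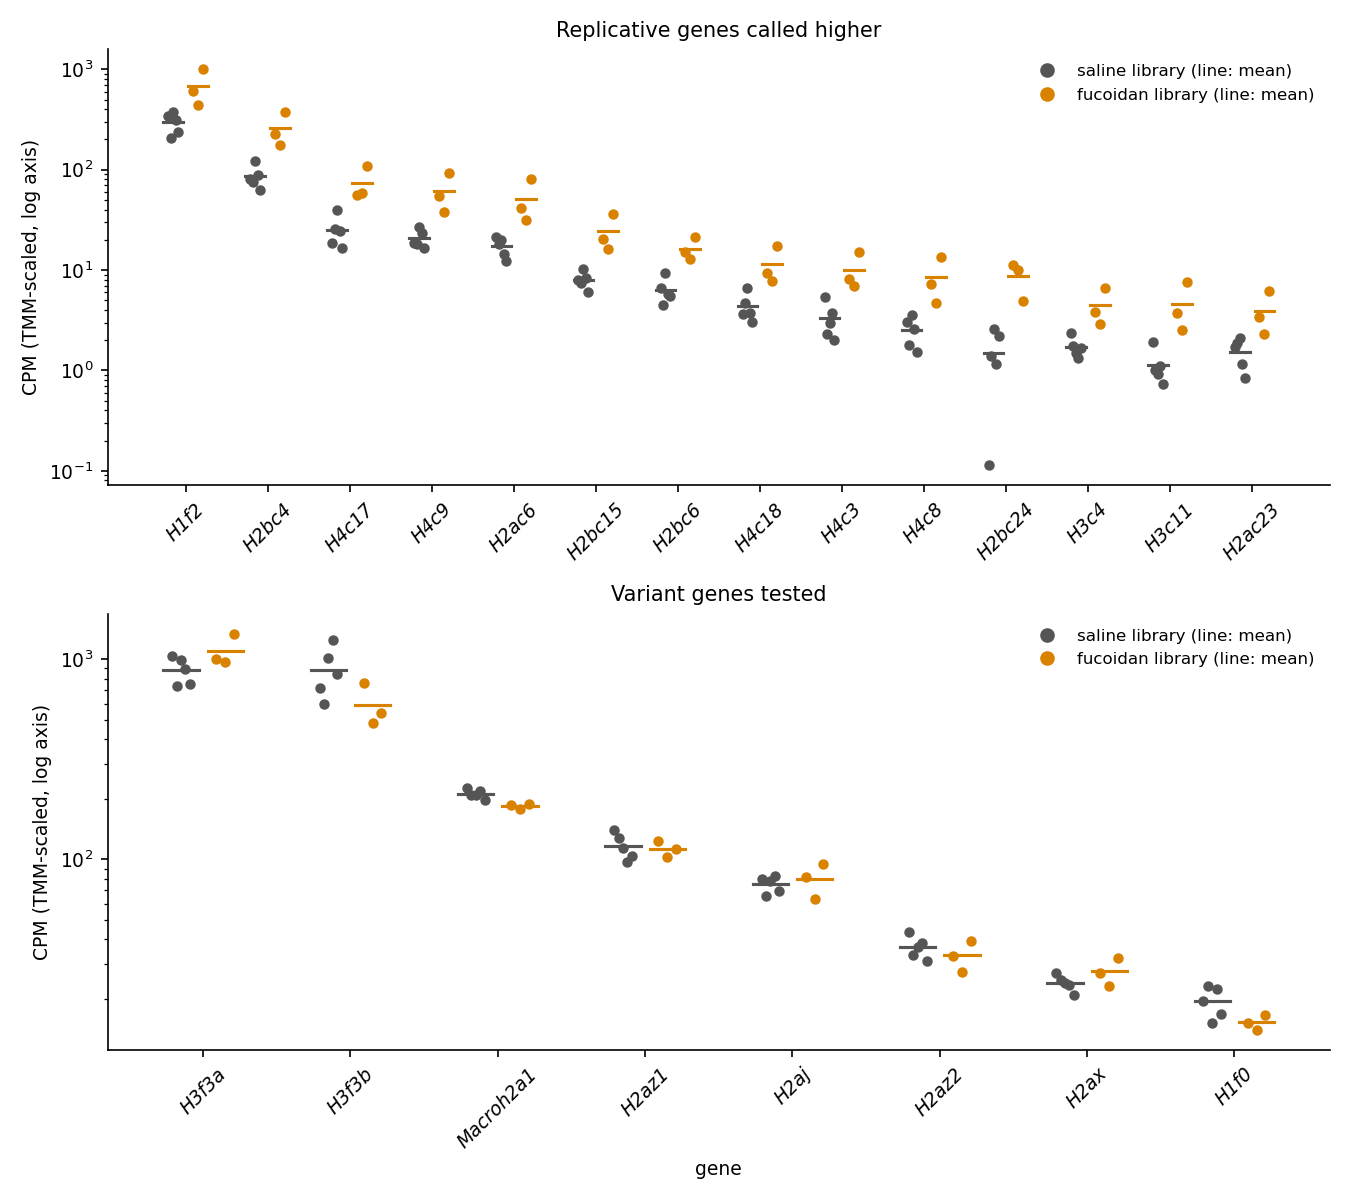
CPM in each library (log axis) of the 14 replicative genes that were called, above, and of the 8 tested variant genes, below, with lines at the group means. The fucoidan points lie above all saline points in each of the 14 upper genes and overlap them in the lower genes other than Macroh2a1. The upper genes were chosen by their call on the same libraries, which favours such separation. Of all 25 tested replicative genes 16 had fucoidan libraries that were all higher, against 11.6% of all genes tested.

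The most abundant variant genes were H3f3a and H3f3b, which encode the same replacement form of histone H3. H3f3a (ENSMUSG00000060743, chromosome 1, 180628397 to 180641508) stood at 1041, 734, 993, 889 and 749 CPM after saline and at 1002, 966 and 1342 CPM after fucoidan. H3f3b (ENSMUSG00000016559, chromosome 11, 115912738 to 115918788) stood at 721, 596, 1015, 1242 and 842 CPM, and at 759, 482 and 538 CPM. Groups overlapped in both genes. H3f3a had a log2 fold change of 0.32 (SE 0.160, adjusted p = 0.213) and H3f3b of -0.57 (SE 0.235, adjusted p = 0.135). H3f3a made 41.7 to 59.1% of the counts of this pair in saline libraries and 56.9 to 71.4% in fucoidan libraries, which overlap through fucoidan replicate 1 and saline replicate 1.

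Macroh2a1, a large H2A variant with a macro domain (ENSMUSG00000015937, chromosome 13, 56221432 to 56284174), was the one variant gene whose groups did not overlap. It stood at 227, 210.4, 210.4, 219.5 and 199 CPM after saline and at 187, 178 and 189 CPM after fucoidan (log2 -0.20, SE 0.0916, adjusted p = 0.171). Of all genes tested, 11% had fucoidan libraries that were all lower, and 11.6% had them all higher. H1f0, the linker histone of differentiated cells, was at 19.5 ± 3.42 CPM after saline (SD, n = 5) and 15.4 ± 1.34 CPM after fucoidan (SD, n = 3), with overlap (log2 -0.35, SE 0.158, adjusted p = 0.175).

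The other H2A variants were not called either. H2az1 and H2az2 encode H2A.Z, found at promoters, and had log2 fold changes of -0.05 (SE 0.130) and -0.15 (SE 0.142). H2aj had 0.09 (SE 0.133). H2ax, whose protein is phosphorylated at DNA breaks and whose transcript holds the stem-loop and runs 822 bases past it, had 0.19 (SE 0.128, adjusted p = 0.373). Its libraries ran from 21.1 to 27.1 CPM after saline and from 23.4 to 32.3 CPM after fucoidan, which overlap.

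Per kilobase of gene length, the order of the most abundant histone genes differed between group means. After saline H3f3b (297 CPM per kb), H3f3a (252) and H1f2 (190) led, followed by H2bc4 (74.3). After fucoidan H1f2 (439) was first, then H3f3a (315), H2bc4 (226) and H3f3b (199). H1f2 and H3f3a differ by less than the SD of H1f2 in fucoidan libraries, so their order there is not fixed. Among H3 genes alone, the replicative members summed to 4.90 to 9.62 CPM per kb after saline and 10.6 to 30.1 after fucoidan. The variant H3 genes summed to 410 to 671 and 438 to 564 CPM per kb, far above replicative H3 in all libraries. Poly(A) selection keeps tailed RNA, and most replicative RNA has no tail. The levels here therefore do not rank the classes in the cells, H1f2 against H3f3a included.

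Summed over all members, replicative genes had 541, 386, 656, 528 and 398 CPM in saline replicates 1 to 5 and 1099, 836 and 1826 CPM in fucoidan replicates 1 to 3. Every fucoidan library was above every saline library, with a ratio of means of 2.50. Without H1f2 the ratio was 2.76. By family the ratios were 2.30 for H1 (nearly all H1f2), 2.87 for H2A, 2.71 for H2B, 2.66 for H3 and 2.91 for H4. Variant genes summed to 2297, 1816, 2487, 2616 and 2032 CPM after saline and to 2228, 1857 and 2365 CPM after fucoidan, all within the saline range (ratio 0.956). For each 100 CPM of variant genes the replicative genes gave 22.2 ± 2.79 CPM after saline (SD, n = 5) and 57.2 ± 17.5 CPM after fucoidan (SD, n = 3). As the libraries were poly(A)-selected, this is not the proportion of the classes in the cells. These sums carry no test, because the members were chosen with results known.

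**Figure D3:**
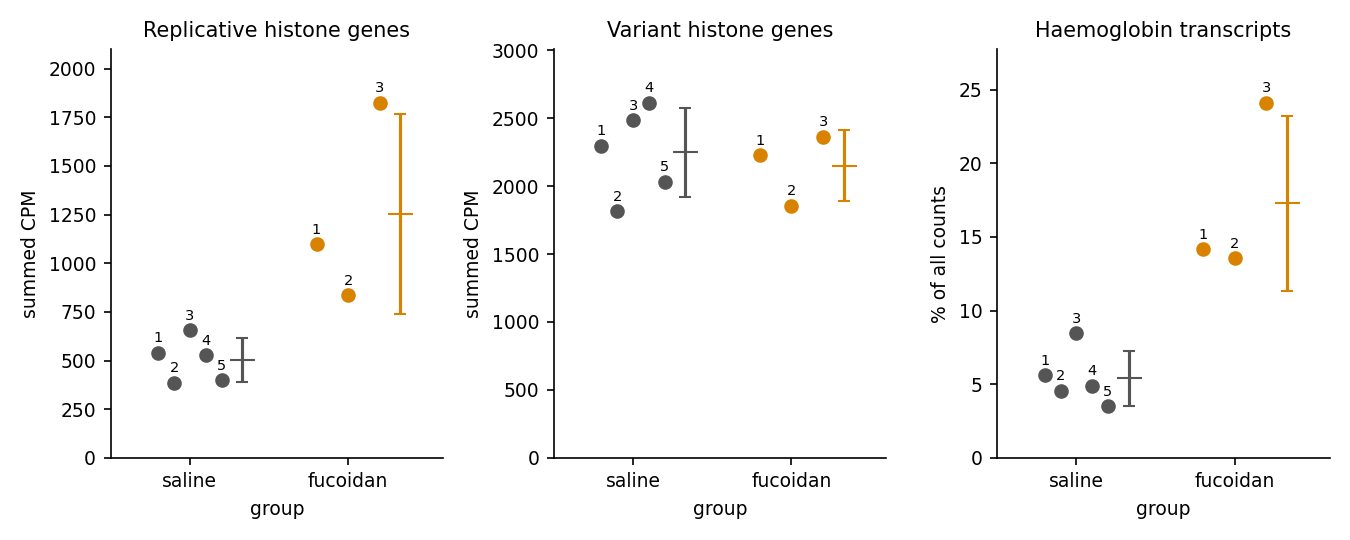
Summed CPM of replicative and of variant histone genes, and haemoglobin transcripts as a share of all counts, in each library (numbers are replicates, bars the mean and SD). Replicative sums reach 656 after saline and start at 836 after fucoidan, variant sums overlap, and haemoglobin shares reach 8.48% and start at 13.5%.

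Red cell and platelet transcripts moved with the replicative genes. Haemoglobin took 3.51 to 8.48% of counts in saline libraries and 13.5 to 24.1% in fucoidan libraries (exact two-sided permutation p = 0.0357, the smallest that 56 free arrangements of the libraries allow, which set aside the replicate numbers). Saline replicate 3 and fucoidan replicate 3 had the highest haemoglobin share of their groups and also the highest replicative histone sum. The summed platelet markers were highest in the same libraries (3839 and 11598 CPM). All 8 tested of 10 erythroid markers were called higher, and the erythroid list summed to 31726 to 87759 CPM after saline and 153386 to 366994 after fucoidan. Its member Klf1, an erythroid transcription factor, was at 0.105 to 0.578 and 0.0764 to 0.770 CPM, too low to test. Platelet markers were called higher in all 6 tested of 7 (1829 to 3839 and 5433 to 11598 CPM), natural killer markers in 5 of 5 (172 to 248 and 379 to 579 CPM) and T cell markers in 3 of 6 (495 to 615 and 694 to 926 CPM). B cell markers were called lower in 5 of 6 cases (3542 to 4472 and 2148 to 3110 CPM). The platelet marker too low to test was Gp1bb, at 0 to 4 counts. Monocyte markers summed to 2578 to 5436 and 2632 to 3300 CPM and neutrophil markers to 432 to 1008 and 450.1 to 582 CPM. In each of these lists 0 of 6 were called. The neutrophil sum is mostly S100a8 and S100a9 (log2 -0.34 and -0.35), while 4 of the 6 had positive log2 fold changes. With the haemoglobin genes left out of the counts before scaling, the same 14 replicative genes were called. The part of the other transcripts of these cell types in the histone result was not tested. Total counts ran from 13061703 to 16334932 per library.

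Genes of DNA replication and division are set here beside the 9.11% of all tested genes that were called higher. Of 6 markers of dividing cells 1 was called higher, Ube2c, which encodes a ubiquitin-conjugating enzyme of mitosis (4.58-fold, SE 0.326 on the log2 scale, adjusted p = 0.00396). It ran from 20.4 to 53.9 CPM after saline and from 104 to 211 CPM after fucoidan, and the whole list summed to 49.7 to 78.6 and 143 to 274 CPM. Without Ube2c the other 5 markers summed to 21.0 to 57.9 CPM after saline and 39.7 to 62.9 CPM after fucoidan, which overlap. Mki67 and Top2a, the usual marks of cycling cells, had means of 19.1 ± 9.44 and 11.9 ± 3.98 CPM after saline (SD, n = 5) and of 29.6 ± 9.11 and 15.2 ± 2.83 CPM after fucoidan (SD, n = 3). Groups overlapped in both, neither was called, and Mki67 was called just on leaving out saline replicate 2 (log2 0.94, adjusted p = 0.0410). Of 28 S phase genes 3 were called higher and 0 lower, with a median log2 fold change of 0.02 against -0.04 over all genes. They were Tyms, the thymidylate synthase (log2 1.09, SE 0.231, adjusted p = 0.0107), and the transcription factors E2f2 (log2 1.20, SE 0.263, adjusted p = 0.0122) and E2f1 (log2 0.55, SE 0.165, adjusted p = 0.0475). E2f2 went from 99.2 to 130 CPM after saline to 174, 179 and 444 CPM after fucoidan, highest in fucoidan replicate 3. With the replicate block Tyms, E2f2 and E2f1 were not called (adjusted p = 0.0711, 0.0635 and 0.221). Tyms was also lost without fucoidan replicate 1 (0.0517), E2f2 with no filter on low counts (0.105), and E2f1 with upper-quartile factors (0.0579), with no filter (0.12) and on leaving out saline replicate 3, 4 or 5 or any fucoidan library (0.0840 to 0.162).

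Genes that process histone RNA or carry histone proteins are set beside the 13.8% of all tested genes that were called in either direction. Of 25 genes of histone RNA 3′ processing, edgeR called 0 higher and 1 lower (median log2 fold change 0.00432). The one was Cpsf3, the nuclease that cuts histone and other pre-messenger RNA (log2 -0.39, SE 0.0934, adjusted p = 0.0180). That call ended with the block (0.0557) and without fucoidan replicate 1 or 3 (0.0772 and 0.0911). Of 32 histone chaperone genes 1 was called in each direction (median log2 fold change -0.05). Anp32e, a chaperone of H2A.Z, rose by log2 0.41 (SE 0.107, adjusted p = 0.0261), and Dnajc9, a co-chaperone of H3 and H4, had a log2 fold change of -0.45 (SE 0.109, adjusted p = 0.0191). Anp32e was not called without saline replicate 5 or fucoidan replicate 1 or 3 (0.0571, 0.0654 and 0.13), nor Dnajc9 without saline replicate 4 or any fucoidan library (0.0508 to 0.0754).

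**Figure D4:**
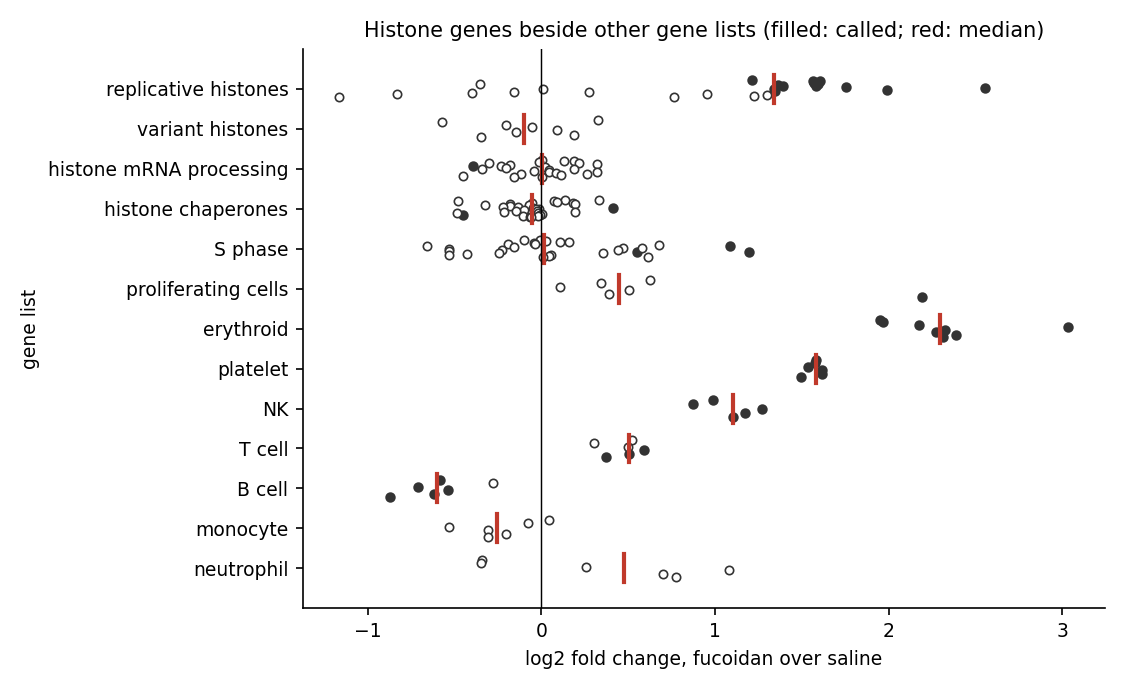
Log2 fold change (fucoidan over saline, x axis) of each tested gene in the histone classes and in other lists (y axis), filled where called, with red lines at the medians. Replicative histones (median 1.34) lie between natural killer markers (1.10) and platelet markers (1.58), below erythroid markers (2.29), while variant histones, RNA processing, chaperone and S phase genes centre near 0 and monocyte and neutrophil markers at -0.26 and 0.48.

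Of all 14723 genes tested, 1341 were higher and 684 lower. Without fucoidan replicate 3 that was 746 and 182, and 9 of the 14 replicative calls remained. With the replicate number as a block 11 of the 14 remained. All 14 kept a positive log2 fold change wherever they were tested among the alternatives, scaling included.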

How the data were processed

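The members and gene lists were chosen with earlier results of these data known. The authors deposited raw counts per gene (whole numbers). The submitters' processing notes name HISAT2 2.2.1, Trimmomatic 0.39 and cutadapt 4.0 as tools, and GRCm39 as the build. The counter, annotation release and strandedness were not given in the sources used here, so overlapping and near-identical genes are uncertain. Gene lengths are those of the deposited table. Samples were grouped by title, although a free-text treatment note under the fucoidan titles mentions saline alone. Nothing says whether mice shared cages or litters.

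Counts were filtered with filterByExpr (14723 genes), TMM-scaled and tested with edgeR 4.0.16 in robust quasi-likelihood mode (R 4.3.3), after a run on simulated data. The SE is the absolute log2 fold change over the square root of the F statistic. Alternatives used DESeq2 1.42.0, limma 3.58.1 (voom with quality weights), other scalings and filters, and leaving out each library. Haemoglobin share was compared by an exact permutation test in scipy 1.17.1. The main fit used the group alone, so its fold changes and calls are unpaired. Replicate numbers were taken as pairs only in the alternative with the replicate block, which kept 11 of the 14 replicative calls. After removing group means, like-numbered libraries correlated at 0.177, 0.233 and 0.144.

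Named were all called members, variant members of at least 1 CPM, the 6 most abundant replicative genes, the extremes, and from each pathway list the 3 called genes with the smallest p. Other members are named to account for all tested ones, after their values were seen. Stem-loops and shared stretches (sense strand) come from GENCODE vM21 (GRCm38) transcripts, matched by gene ID for all 77 members, and used without coordinates.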

Additional observations from a re-analysis of the deposited data

How the results depend on the processing

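The count of replicative genes called higher was 9 to 14 on leaving out 1 library, lowest without fucoidan replicate 3, and 11 to 14 under the other alternatives, with 0 called lower in any. The count of variant genes called was 0 in each. Over all genes, 928 to 2224 were called on leaving out 1 library (928 without fucoidan replicate 3, 1291 without saline replicate 4) against 2025 with all. Upper-quartile factors called 1241 higher and 989 lower. Blocking on the replicate number gave 1561 called genes, 11 of them replicative histone genes. The block ended the calls of H2bc24, H2ac23, H3c4, Cpsf3, Tyms, E2f1 and E2f2 and changed no other named call. The direction turned only in genes that were not called. H2bc8 stood at -0.041 with upper-quartile factors, at -0.0040 with no filter, and from -0.17 to 0.20 on leaving out 1 library. H2bc23 stood at 0.55 with the block, 0.0037 with limma-voom and from -0.39 to 0.61 on leaving out 1 library. H2az1 stood at 0.058 with limma-voom. On leaving out 1 library it ran from -0.12 to 0.020, H2aj from -0.036 to 0.23, and H1f4 from -0.0083 to 0.63. The cause was not tested. The ratio of summed CPM was 1.93 to 2.91 for replicative and 0.908 to 1.02 for variant genes on leaving out 1 library. At 13061703 to 16334932 counts per library, 44 of the 77 members were too low to test.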
